A study of Rattus norvegicus with 10 samples.

Results

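The genes described here belong to the corticotropin-releasing hormone (CRH) and urocortin system, with thyrotropin-releasing hormone beside them. Members were taken by symbol, as the rows of the deposited gene table that carry the names *Crh*, *Ucn3*, *Trh*, *Crhr1*, *Crhr2* and *Crhbp*. All 6 had a row, out of 12828 genes. The RNA came from tissue dissected as the arcuate nucleus (ARC) of the hypothalamus of Wistar rat mothers, collected at parturition. Of the 10 dams, 5 had eaten the 5X-FA diet in pregnancy, which carries folic acid at 5X the recommended amount, and 5 had eaten the 5X-MTHF diet, with the equimolar amount of [6S]-5-methyltetrahydrofolic acid. Both diets were therefore high in folate, and no group on the 1X diet was sequenced. The ARC was cut free-hand from a frozen coronal slice with the third ventricle as the landmark.

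CRH is the peptide with which paraventricular neurons drive the release of ACTH from the pituitary, and so of glucocorticoids from the adrenal gland. The urocortins are related peptides. *Crhr1* and *Crhr2* encode the receptors, which belong to class B of the G protein-coupled receptors and raise cyclic AMP through Gs. CRH binds mainly the first receptor, whereas urocortin 3 is selective for the second. The binding protein encoded by *Crhbp* takes up free CRH and limits its action. *Trh* encodes the precursor of the tripeptide that starts the thyroid axis; it is no part of the CRH family, but is likewise made in paraventricular neurons and acts on a receptor that couples to Gq.

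One value per gene was used, the average that the authors deposited over all libraries of both diets together, in log2 CPM (CPM, counts scaled to a total of 1000000 per library). It describes the tissue dissected as ARC, over all these dams, and carries no spread between dams. No SD is therefore given and no difference between the diets was tested. The values are not divided by gene length. They tell how many reads stood behind each gene and not which of 2 genes had more transcripts. Over all genes the average ran from -2.07 to 14.56 log2 CPM, with a median of 4.94. The deposited gene table is a filtered one, so "all genes" means the genes kept in it. Places given below are among these genes and not among all annotated genes.

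The rows of all 6 members are annotated as protein-coding. In Rnor_6.0 coordinates *Crh* (ENSRNOG00000012703) lies on chromosome 2 from 104459999 to 104461863. *Crhbp* (ENSRNOG00000017890) is on the same chromosome, from 25141471 to 25153334. *Crhr2* (ENSRNOG00000011145), from 85286372 to 85329362, and *Trh* (ENSRNOG00000011824), from 124110716 to 124113242, are both on chromosome 4. *Crhr1* (ENSRNOG00000004900) lies on chromosome 10 from 92191718 to 92232645. *Ucn3* (ENSRNOG00000017759) is found on chromosome 17 from 69960160 to 69966099. The interval of 0 of the 6 members overlapped that of another gene of the table. The nearest other gene of the table stood 10.3 kb from *Crhr2*. The distances of the members to the next gene of the table on either side reached 585.0 kb, beside *Crhbp*. Annotated genes without a row may lie in between. No read of these rows could thus be shared with an overlapping gene of the table.

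To show the DNA in front of these genes, the 250 bases before each annotated start were searched in the RefSeq promoter sequences (build GRCr8, which is not the build of the gene table). An entry was present for 5 of the 6 members, with 2 overlapping entries for *Crhr1*; the member without one was *Crh*. The letters searched were those of the cyclic AMP response element, the site of the factor CREB, in its full form TGACGTCA and as the half-site TGACG, each on both strands. The half-site is contained in the full form. The full element occurred in 0 of the 5 members and in 1.59% of all 33469 promoters. The half-site occurred once in each of 4 members, *Ucn3*, *Trh*, *Crhr2* and *Crhbp*, and in 18.2% of all promoters. Each of these stretches is shown 5′ to 3′ on the strand of its gene, with the half-site in capitals, so that its surroundings can be read.

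*Ucn3*, chr17:71219565-71219609, plus strand: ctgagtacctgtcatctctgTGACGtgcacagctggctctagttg

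*Trh*, chr4:126301812-126301856, minus strand: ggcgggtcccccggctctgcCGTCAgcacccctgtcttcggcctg

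*Crhr2*, chr4:85581544-85581588, minus strand: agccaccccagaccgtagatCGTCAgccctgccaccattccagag

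*Crhbp*, chr2:28439522-28439566, minus strand: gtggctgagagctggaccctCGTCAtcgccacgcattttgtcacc

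In *Ucn3* the half-site reads along the gene, from base 71 to base 67 before the start. In the other 3 genes it reads on the opposite strand and so appears as CGTCA. It begins 74 bases before the start in *Trh*, 105 bases in *Crhr2* and 100 bases in *Crhbp*. Both *Crhr1* entries lacked the letters within the same 250 bases, of which 75.2% and 75.6% were G or C. The share was 65.2% in *Trh*, 59.2% in *Crhr2*, 50% in *Crhbp* and 44% in *Ucn3*. Such matches are a description of the letters and do not show that a factor binds there.

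Among the peptide precursors, *Trh* was covered by many more reads than the others. Its average was 5.96 log2 CPM, which is 62.2 CPM, and 70.7% of all genes had a lower value. Of the 92.1 CPM that fell on the 6 members together, 67.5% came from *Trh*. The average of *Crh* was 2.76 log2 CPM, or 6.76 CPM, with 13.2% of genes below it. *Ucn3*, the urocortin with selectivity for CRHR2, had 0.51 log2 CPM, or 1.42 CPM, and only 222 of the 12828 genes had a lower value. The peptide genes thus stood at both ends of the members, with *Ucn3* lowest and *Trh* highest in reads.

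The receptors had similar numbers of reads. *Crhr1*, through which CRH acts on pituitary and brain, averaged 2.82 log2 CPM (7.08 CPM). *Crhr2*, a receptor found in the ventromedial hypothalamus among other regions, averaged 2.97 log2 CPM (7.83 CPM). They were placed above 14.0% and 15.6% of all genes. *Crhbp*, the secreted binding protein, averaged 2.76 log2 CPM (6.79 CPM), above 13.3% of genes. The 4 members other than *Trh* and *Ucn3* thus spanned no more than 0.21 log2 units. This is closeness in read number, and since the genes differ in length it does not say that their transcripts were equally abundant.

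**Figure D1:**
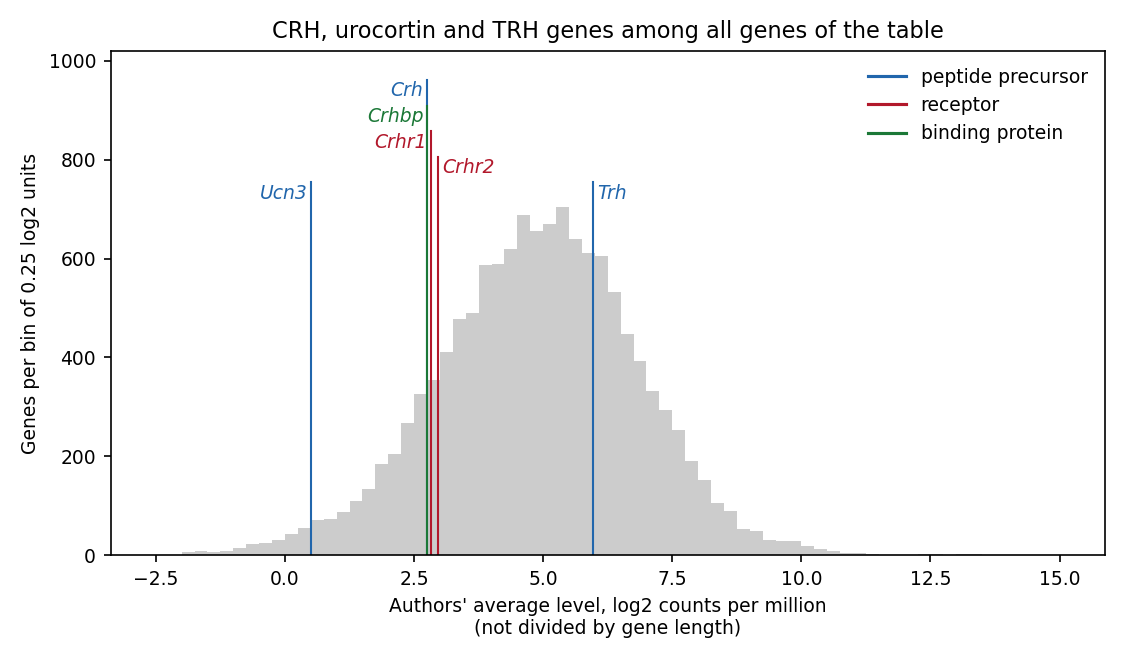
The x axis is the authors' average level in log2 CPM, not divided by gene length, and the y axis is the number of genes in each bin of 0.25 log2 units. Grey bars are all 12828 genes and each vertical line is 1 member, coloured by its role; *Ucn3* stands at 0.51, *Crh*, *Crhbp*, *Crhr1* and *Crhr2* between 2.76 and 2.97, and *Trh* at 5.96.

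Read number sets how well each gene can be measured. In a library of 1000000 counted reads, counting error alone would be 12.7% of the value for *Trh*. For *Crhr2* it would be 35.7%, for *Crhr1* 37.6%, for *Crhbp* 38.4% and for *Crh* 38.5%. For *Ucn3* it would be 83.9%. A deeper library has a smaller error, in inverse proportion to the square root of its reads. The size of 1000000 is a unit for comparison; the methods of the study state a much greater depth for each library, at which these errors are smaller, while the averages themselves do not show it. These figures cover counting error only, and the differences between dams come on top of them.

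The wider CRH and urocortin list has 7 genes, of which 5 had a row; the other urocortins, *Ucn* and *Ucn2*, were not analysed here. The median of the 5 was 2.76 log2 CPM, and 0 of them reached an average of 4, a level that 68.8% of all genes reached. The TRH list has 4 genes, of which 3 had a row, and all 3 reached 4. Its receptor gene *Trhr* averaged 4.42 log2 CPM (21.5 CPM). *Trhde*, which encodes the enzyme that breaks the peptide down outside the cell, averaged 4.95 log2 CPM (30.8 CPM). Reads of ligand, receptor and degrading enzyme of the TRH system were thus all present in this tissue.

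Of 7 genes that act in turning peptide precursors into active peptides, 5 had a row, between 4.73 and 10.74 log2 CPM with a median of 8.38. *Pcsk1* and *Pcsk1n* had none. *Cpe*, the carboxypeptidase that trims the cut peptide, averaged 10.74, *Pam*, which forms the C-terminal amide that both CRH and TRH carry, averaged 8.89, and *Scg5*, the chaperone of prohormone convertase 2, averaged 8.38 log2 CPM. The lowest was *Qpct*, which forms the N-terminal pyroglutamate that TRH carries, at 4.73 log2 CPM (26.5 CPM), named after its value was seen. These genes serve many neuropeptides, not those of the CRH system alone.

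Of the pathways behind the receptors, all 15 listed genes of Gs and Gq coupling had a row, and *Gnas* had 2 rows, so that 16 rows were described, with a median of 6.55 log2 CPM. The higher row of *Gnas*, the gene of the Gs alpha subunit, averaged 10.09. *Prkacb*, a catalytic subunit of protein kinase A, averaged 7.86, and *Adcy5*, an adenylyl cyclase, averaged 7.64 log2 CPM. Of the 16 rows 15 reached 4, and the lowest was *Creb1*, the gene of CREB, at 3.61 log2 CPM (12.2 CPM), named after its value was seen. Of 13 other class B receptor genes 5 had a row, with a median of 5.17 log2 CPM. Among them, *Adcyap1r1*, the PACAP receptor, averaged 8.68, *Calcr*, the calcitonin receptor, averaged 6.67, and *Calcrl*, the calcitonin receptor-like receptor, averaged 5.17 log2 CPM. The 2 CRH receptors, at 2.82 and 2.97, lay above the lowest value of that list, 2.35, and below its median in reads, with length not accounted for.

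On the side of glucocorticoid feedback, by which the end product of the axis acts back on the brain, 5 of 6 listed genes had a row, with a median of 5.51 log2 CPM. The listed gene without a row was *Nr3c1*, so the gene of the glucocorticoid receptor itself was not described. The lowest was *Nr3c2*, the gene of the mineralocorticoid receptor, at 4.13 log2 CPM (17.5 CPM), named after its value was seen. *Tsc22d3* and *Sgk1*, which glucocorticoids induce, averaged 6.51 and 6.50. *Fkbp5*, a co-chaperone of the glucocorticoid receptor that glucocorticoids also induce, averaged 5.51 log2 CPM.

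**Figure D2:**
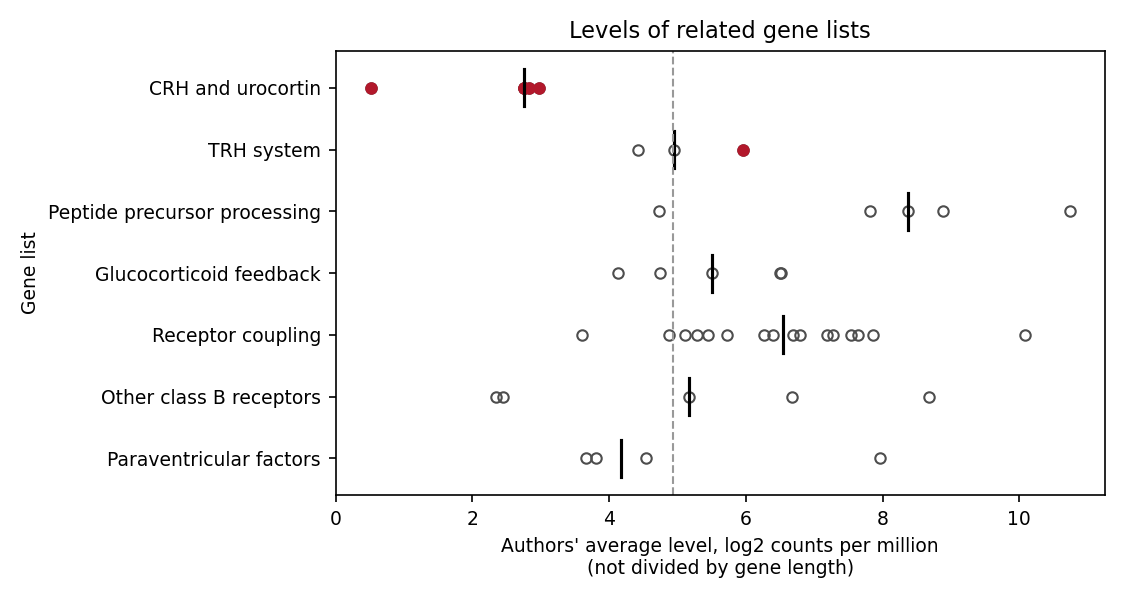
The x axis is the authors' average level in log2 CPM, not divided by gene length, and each line of the y axis is 1 list of genes. Circles are genes, filled red for the 6 members, black ticks are list medians and the dashed line is the median of all genes, 4.94; the CRH and urocortin genes all lie left of it and *Trh* lies right of it.

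The tissue label was checked against markers. Of 8 ARC markers 7 had a row, from 0.08 log2 CPM for *Kiss1* to 4.67 for *Pomc*, the precursor of the melanocortins, with a median of 2.45. The marker without a row was *Npy*, which the median therefore leaves out. All 4 markers of the paraventricular and supraoptic nuclei, where most hypothalamic *Crh* and much of *Trh* is made, had a row as well, with a median of 6.25. *Oxt* and *Avp*, the precursors of oxytocin and vasopressin, averaged 8.33 and 7.96. The paraventricular transcription factors *Arnt2*, *Sim1*, *Pou3f2* and *Otp* averaged 7.97, 4.54, 3.81 and 3.66, and of these *Arnt2* is widely expressed in brain. All 4 markers of the ventromedial nucleus had a row, between 1.88 and 6.04. The regional list with the highest median, 7.46, was that of the perifornical and lateral hypothalamus, whose 2 markers *Pmch* and *Hcrt*, the precursors of melanin-concentrating hormone and the orexins, averaged 9.24 and 5.68. Reads of markers from regions outside the hypothalamus were present too, with medians of 5.37 for 7 striatal, 5.04 for 4 thalamic and 3.34 for 5 cortical and hippocampal genes. Of the hypothalamic, striatal, thalamic and cortical lists, that of the ARC had the lowest median in reads, with length not accounted for. The libraries thus held RNA of ARC marker genes together with that of markers of other regions. From which of these regions the reads of *Crh*, *Trh*, *Ucn3* and the receptors came was not tested. In tissue of mixed regions, the number of cells that make a transcript and the amount per cell cannot be told apart.

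**Figure D3:**
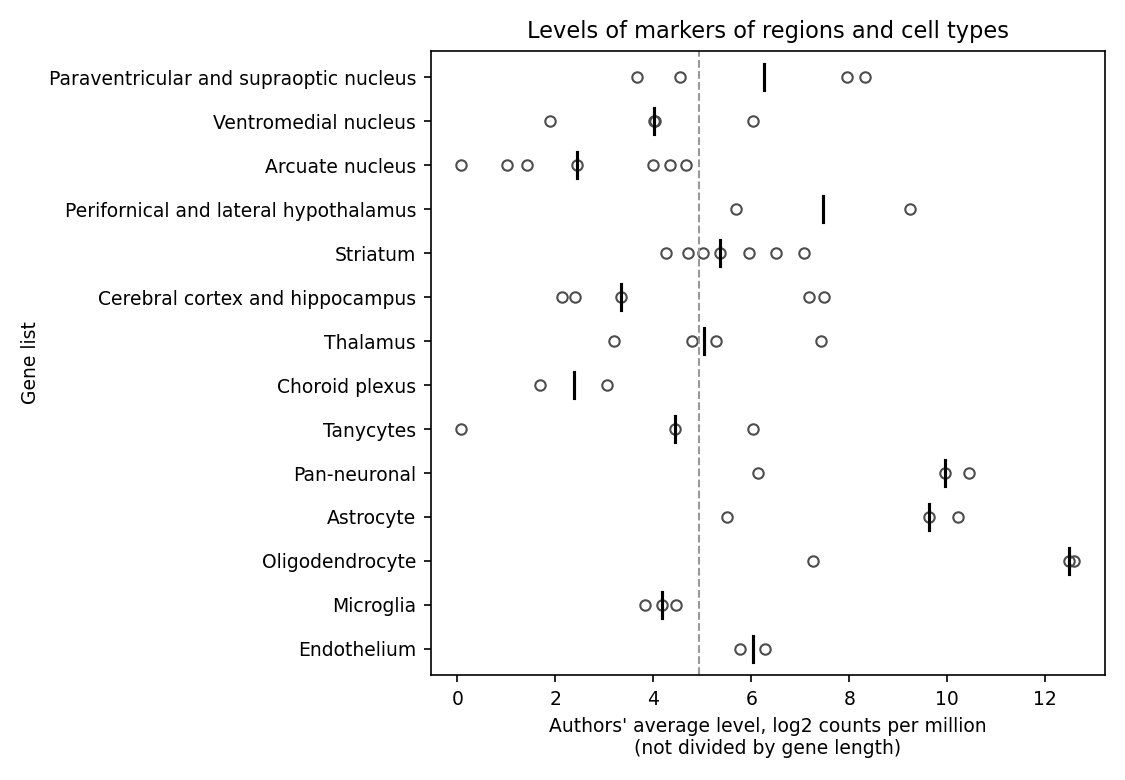
The x axis is the authors' average level in log2 CPM, not divided by gene length, and each line of the y axis is 1 list of markers of a brain region or cell type. Circles are genes, black ticks are list medians and the dashed line is the median of all genes, 4.94. The ARC list, without *Npy*, has its median at 2.45 and the paraventricular and supraoptic list at 6.25.

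Among cell types, all 3 markers had a row for neurons, astrocytes, oligodendrocytes and microglia, with medians of 9.96, 9.62, 12.48 and 4.18 log2 CPM. For endothelium, tanycytes and choroid plexus, 2 of 3, 3 of 4 and 2 of 4 markers had a row, with medians of 6.03, 4.44 and 2.38.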

How the data were processed

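Poly-A RNA from tissue dissected as ARC from 10 dams was sequenced on an Illumina HiSeq instrument. Per the labels and the methods of the study, reads were trimmed with Trim Galore 0.5.0, aligned with STAR 2.6.0c to Rnor_6.0 with Ensembl gene models and counted with HTSeq 0.6.1p2. For each gene the authors deposited an average log2 CPM over all libraries; the tool and prior count behind it are not given in the sources used here. Raised to the power of 2, the values sum to 1002152 over all genes, which fits base 2.

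The table also holds 4 columns of the authors' own comparison (a fold change, an F statistic, a p-value and a false discovery rate), which were not used. A further 10 columns of values per library carry only numbers as headings, which none of the sample labels repeat. They were left out of every calculation. The planned tests of diet therefore could not be run, and no depth or spread per dam was obtained.

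Percentiles are the share of genes of the filtered table with a lower average. The 6 members were all described, and the 3 genes with the highest average were named in each list of related genes; markers were named after their values were seen. Members and lists were chosen with earlier results of these data known. Counting error is the square root of the reads expected among 1000000. The calculations were tested on simulated data. Calculations ran in Python 3.11.15 with pandas 2.3.3, numpy 2.4.6 and scipy 1.17.1, and plots were drawn in matplotlib 3.10.9.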

Additional observations from a re-analysis of the deposited data

How the results depend on the processing

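No paired analysis was possible because the columns per library carry no label of a dam. For the same reason the planned tests of diet, with their alternatives, and fits without 1 dam were not run. Levels per length were not computed, as no transcript lengths of the build were used. Of 30 values recomputed for levels and list medians, 14 moved. A percentile counted as moved outside its 95% exact binomial interval, a median at a shift of 0.1 log2 units or more. The interval served only as a limit for the shift and measures no spread between dams or in read counts. The other 16 did not move, but for most of them the setting removed no gene, so the value could not change. Where genes were removed, only the CRH and urocortin median (2.79 with genes of at least 1) and the *Trh* percentile (70 among protein-coding genes) stayed. Ranked among the 12383 protein-coding genes alone, the percentiles were 11.4 for *Crh*, 0.961 for *Ucn3*, 12.2 for *Crhr1*, 13.7 for *Crhr2* and 11.5 for *Crhbp*. Ranked among the 12462 genes whose average reached 1 log2 CPM, they were 10.6 for *Crh*, 69.9 for *Trh*, 11.4 for *Crhr1*, 13.1 for *Crhr2* and 10.7 for *Crhbp*, while *Ucn3* lies under that limit. Without its member, the TRH list had a median of 4.69. With only genes of at least 4, the medians were 6.69 for receptor coupling, 6.67 for other class B receptors and 6.25 for paraventricular factors. In each case fewer genes entered the value. Removing genes under a limit can only lower these percentiles and raise these medians, so the direction of such moves was fixed in advance. The value for *Ucn3* rests on the fewest reads of the 6 members, and an average of so few reads depends on the unstated prior count.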
